A study of Drosophila melanogaster with 2 samples.

Results

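Of the binding sites called for the Drosophila melanogaster repressor aop from its 2 biological replicates combined, 566 were absent from the peak list of either replicate taken alone. They were chosen by peak calls, that is, by measured values: a peak of the thresholded list made from both replicates became a member when it shared not even 1 bp with a peak of replicate 1's own thresholded list or of replicate 2's. The combined list held 1725 peaks, of which 1692 lay on the chromosome arms 2L, 2R, 3L, 3R, 4 and X. The 566 members were 33.5% of those 1692 (95% interval 31.2 to 35.8). A further 644 peaks lay in 1 replicate's list and 482 in both. The rule left out 33 peaks on unplaced sequence, 8 of which were in neither replicate's list.

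Chromatin immunoprecipitation followed by sequencing (ChIP-seq) had been run on whole embryos aged 0 to 24 h, which span embryogenesis. The embryos came from transgenic flies expressing fusion proteins of aop with eGFP (enhanced green fluorescent protein). Chromatin sheared by sonication to fragments of 200 to 800 bp was precipitated with an antibody against GFP, although the antibody field of the labels reads aop. Both replicates share this genotype, strain, age and treatment and form 1 group, so no condition was compared with another, and the promoter that drives the fusion is not given in the sources used here. Control libraries were not analysed here. With whole embryos, a site bound in few cells and a site bound weakly in many cannot be told apart.

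The product of aop, known as Yan or Anterior open, has an ETS DNA-binding domain and represses transcription. It acts downstream of receptor tyrosine kinases such as the EGF receptor: once MAP kinase phosphorylates it, it leaves the nucleus, and the ETS activator encoded by pnt can occupy the same kind of site. In the embryo this pair governs choices between cell fates in the mesoderm, the ventral ectoderm, the nervous system and the tracheal system.

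Sequences around member summits show what kinds of site these places hold. Each window is 101 bases of the Release 6 (dm6) plus strand, centred on the summit of a member, and lies outside annotated UTRs. The first set holds the core of the ETS site, CCGGAA or ACGGAA, within 50 bp of the summit, since that is the sequence class aop binds; capitals mark the core or its reverse complement. It comes from an intron of ru (chr3L:1367346-1367446), the start of lmd (chr3R:23026742-23026842), an intron of wgn (chrX:18627325-18627425) and the start of CG7565 (chr3L:8091812-8091912).
ru: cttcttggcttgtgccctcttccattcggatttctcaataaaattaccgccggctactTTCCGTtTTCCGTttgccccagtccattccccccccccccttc
lmd: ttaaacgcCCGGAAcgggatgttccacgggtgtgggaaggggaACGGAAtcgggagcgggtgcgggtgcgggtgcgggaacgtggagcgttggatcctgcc
wgn: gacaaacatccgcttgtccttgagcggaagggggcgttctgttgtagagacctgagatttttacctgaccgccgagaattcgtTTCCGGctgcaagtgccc
CG7565: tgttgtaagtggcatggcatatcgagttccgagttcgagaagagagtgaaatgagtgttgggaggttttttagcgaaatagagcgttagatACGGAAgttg
The gene ru encodes a Rhomboid-family protease that processes EGF receptor ligands, lmd a zinc-finger factor of myoblasts and wgn a tumour necrosis factor receptor. The windows of ru and lmd hold 2 cores each and those of wgn and CG7565 hold 1 each.

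The second set shows the GAGA factor site GAGAGAG, in an intron of brat (chr2L:19154893-19154993) and near the start of rdgA (chrX:8924829-8924929). The third shows the DREF/BEAF site TATCGAT, near the starts of Sar1 (chr3R:22356573-22356673) and RpL37-1 (chrX:15139382-15139482). Both sites are common at fly promoters, and capitals mark them or their reverse complements.
brat: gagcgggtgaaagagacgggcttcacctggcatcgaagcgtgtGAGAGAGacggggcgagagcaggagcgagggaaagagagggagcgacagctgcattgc
rdgA: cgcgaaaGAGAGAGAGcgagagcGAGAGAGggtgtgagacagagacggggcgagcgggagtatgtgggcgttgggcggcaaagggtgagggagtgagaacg
Sar1: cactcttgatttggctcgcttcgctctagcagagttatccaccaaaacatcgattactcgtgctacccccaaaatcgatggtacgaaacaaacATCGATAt
RpL37-1: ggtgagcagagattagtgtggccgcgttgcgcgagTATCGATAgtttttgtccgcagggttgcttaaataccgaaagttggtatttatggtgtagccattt
The gene brat encodes a translational repressor that limits neuroblast self-renewal, rdgA a diacylglycerol kinase of photoreceptors, Sar1 a GTPase of vesicle coats and RpL37-1 a ribosomal protein. The window of rdgA holds 3 sites, some of which overlap, and that of RpL37-1 holds 2, which overlap because the 8-base run reads the same on both strands.

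Every member had a candidate peak in at least 1 replicate. Candidates are the peaks of the authors' ranked lists, which hold 93043 entries for replicate 1 and 113872 for replicate 2, of which the thresholded lists kept 628 and 1142. A candidate of replicate 1 overlapped 552 of the 566 members (97.5%, 95.9 to 98.6) and one of replicate 2 overlapped 564 (99.6%, 98.7 to 100). Both replicates had a candidate at 550 members (97.2%), and 0 members had none. All intervals given for shares are 95% Clopper-Pearson (exact binomial) limits, which cover counting error only.

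The signal of a candidate is the authors' own measure of enrichment with an unstated scaling. It was therefore read within its own list, apart from sums of the replicates' signals set beside the combined signal. In replicate 1 the members' candidates had a median signal of 22.9 (interquartile range 19.1 to 26.9, lowest 3.03, highest 38.7), where all candidates of that list had a median of 9.36. In replicate 2 the median was 30.9 (27.1 to 34.7, lowest 8.82, highest 68.5), where all candidates had 11.0. Members therefore sat high in both ranked lists: their median rank was 1934 of 93043 in replicate 1 and 1958 of 113872 in replicate 2, or within the top 2.08% and 1.72%. These signals and ranks follow in part from how the members were selected, and no test was made of them.

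**Figure D1:**
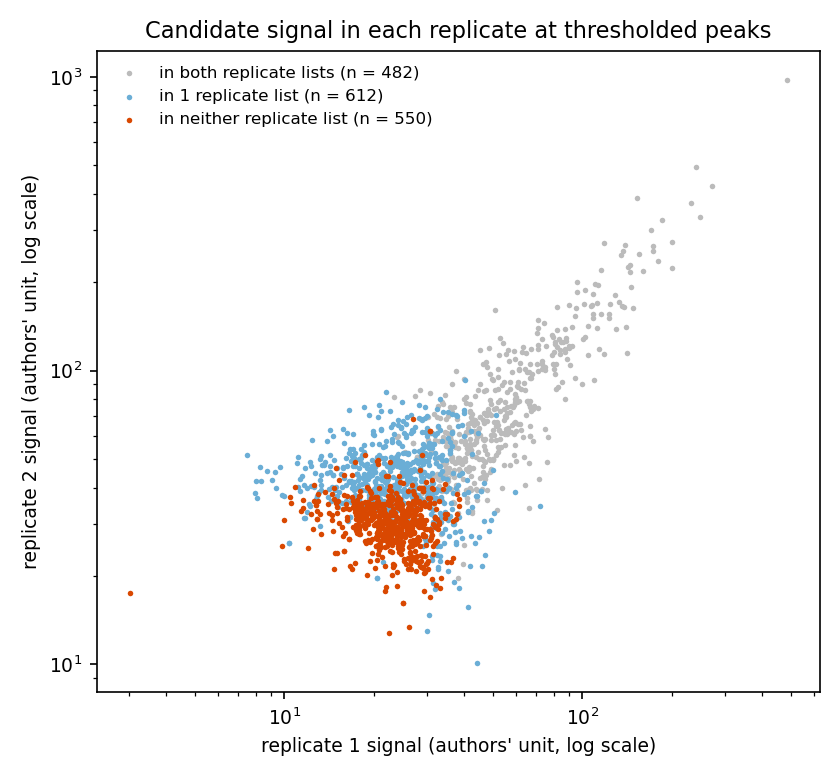
Signal of the strongest overlapping candidate in replicate 1 (x axis) and replicate 2 (y axis), both in the authors' unit on log scales, for thresholded peaks with a candidate in both replicates. The 550 members (orange) form a compact cloud at the low end of the peaks listed in 1 replicate (blue) and in both (grey), with 1 member far to the left at 3.03 in replicate 1.

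The summits of these candidates lay close to the members' own, at a median distance of 14.0 bp in replicate 1 and 11.0 bp in replicate 2. The combined signal had a median of 52.5 over the members (48.5 to 58.3), against 65.4 for peaks in 1 list, 115 for peaks in both and 15.7 for the 143012 other candidates of the combined ranked list on the arms. For members with a combined signal of at least 20, the sum of the replicate signals divided by the combined signal had a median of 0.998 (0.963 to 1.05), so the combined value was close to the sum of the replicates' values. Members filled the weak end of the combined list. With the 1692 peaks split by combined signal into 5 groups of nearly equal size, members made up 75.5% of the weakest group of 339 peaks, then 59.2%, 28.7% and 3.85% of the following groups, and 0 of the strongest.

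The irreproducible discovery rate (IDR) procedure gives each candidate a score, a whole number up to 1000 that is high where paired inputs rank a peak both alike and high. The lowest score in the thresholded lists was 830. Members' candidates had a median score of 263 in replicate 1 (highest 822) and 536 in replicate 2 (highest 830), while in the combined list their median was 940 and 161 of them (28.4%) stood at 1000. The 1 member that reached 830 belongs to shep, which encodes an RNA-binding protein, in replicate 2; it is named after its value was seen. By signal alone, 15 members ranked within the first 628 candidates of replicate 1, 63 within the first 1142 of replicate 2, and 3 within both.

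**Figure D2:**
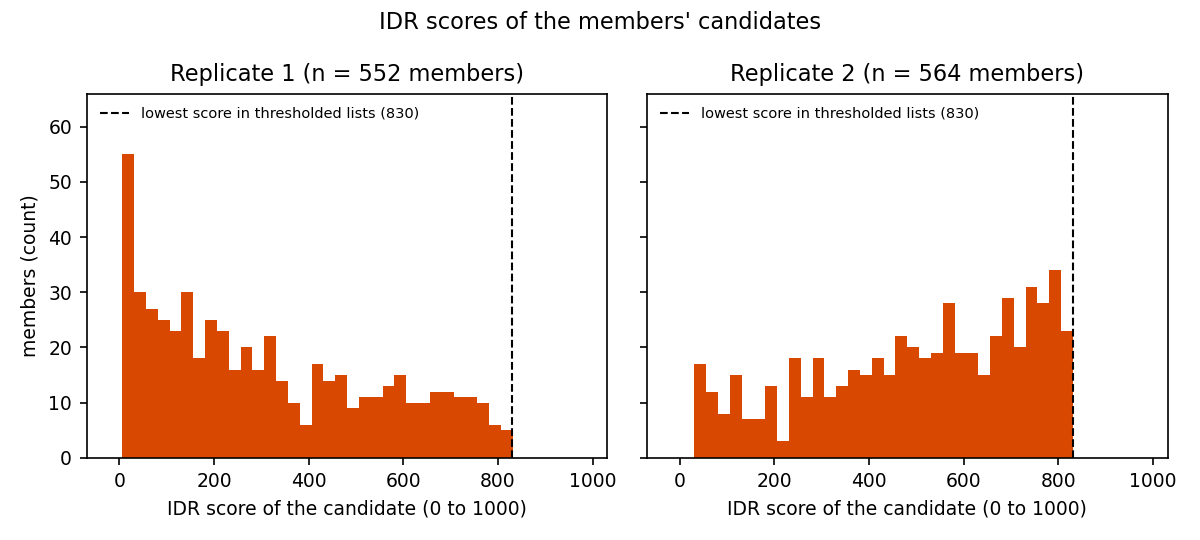
Histograms of the IDR score (x axis, 0 to 1000) of the members' candidates in replicate 1 (552 members) and replicate 2 (564), with the number of members on the y axis and a dashed line at 830, the lowest score of the thresholded lists. Scores lean to the low end in replicate 1 and to the high end in replicate 2, with medians of 263 and 536.

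The combined list was not made by pairing the replicates' own ranked lists. None of the lines of either replicate's ranked list was found among the 2 input columns of the ranked list behind it (0 of 147076 lines). In the ranked list behind the authors' conservative set, the first input equalled a line of replicate 1 in 58.0% of lines and the second a line of replicate 2 in 67.3%. At the members, the unnamed inputs of the combined list had median signals of 25.6 and 26.3.

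The conservative set, which pairs the replicates, held 350 of the 566 members (61.8%, 57.7 to 65.9), where 77.1% of all thresholded peaks on the arms stood in it. Peaks in 1 replicate list were in it in 74.1% of cases and peaks in both in 99.2%. Members inside it had median candidate signals of 24.7 in replicate 1 and 31.5 in replicate 2, and the 216 outside it 18.0 and 29.2. Among peaks whose combined signal lay in the members' interquartile range, 184 of 282 members were in the conservative set (65.2%, 59.4 to 70.8) and 52 of 136 peaks of 1 list (38.2%, 30.0 to 47.0). Membership rests on the same calls, so this order is a description.

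Near the edge of the rule, 2 members lay within 100 bp of a peak in a replicate's list and 64 within 1000 bp, while 352 were over 10000 bp away. The closest were those of Drat (80 bp), aru (85 bp) and Tlk (121 bp), with combined signals of 43.0, 48.1 and 48.9. Just outside it, the peaks with the smallest overlap were those of CheA75a (10 bp), PIG-F (34 bp) and wg (39 bp), with combined signals of 2.07, 6.98 and 2.97. Their replicate candidates had signals of 32.6 and 30.0 (replicates 1 and 2) at CheA75a, 32.3 and 36.8 at PIG-F, and 18.9 and 48.1 at wg. These 3 were lower in the combined list than the 3 members named, but other peaks with small overlaps reached 55.3 (ph-d, 49 bp) and 122 (Ids, 64 bp), both named after their values were seen.

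The strongest member lay at the start of CG10068 (3R, 7127985 to 7128240), with signals of 96.7 in the combined list, 27.0 in replicate 1 and 68.5 in replicate 2. After it came a peak in an intron of CG4496 (2L, 7188447 to 7188702), with 91.9, 30.7 and 62.2. Next came the start of nebu (3L, 12843106 to 12843361), with 85.3, 28.9 and 51.4. All 3 stood nearer the top of replicate 2's list than of replicate 1's: CG10068 ranked 289 there and 1086 in replicate 1, CG4496 354 and 763, and nebu 536 and 902. The IDR scores at CG4496, 552 in replicate 1 and 35 in replicate 2, were below the threshold in both.

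The peak assigned to Dif, which encodes an NF-kappaB factor of the immune response, had 78.5 in the combined list, 31.3 in replicate 1 and 42.5 in replicate 2, and lay 1982 bp from that gene's nearest TSS. At CrebB, a cAMP response factor gene, the intron peak (X, 18368131 to 18368386) had 74.6, 38.7 and 36.5, and ranked 457 in replicate 1 and 1213 in replicate 2. That value of 38.7 was the highest of any member in replicate 1, followed by Tsp42Eg, a tetraspanin gene (38.5), CG12316 (38.0), CG7484 (37.9) and Sdb (37.6). In replicate 2 the peaks of CG10068, CG4496 and nebu led with CG3473 (51.8), and the CG4496 candidate was shared by 2 members.

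The remaining members among the 12 strongest belonged to CG7065, CG7484, mthl1, Tsp42Eg, Pomp, Src64B and GV1, with combined signals from 72.2 to 76.9. Pomp encodes a proteasome maturation factor and Src64B a Src-family tyrosine kinase. Their replicate 1 signals ranged from 20.5 (Pomp) to 38.5 (Tsp42Eg) and those of replicate 2 from 34.6 (Tsp42Eg) to 49.5 (Pomp), so the order was turned around between these 2 genes. All 12 were in the conservative set.

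The 5 lowest members were assigned to Dbct (2.08), fz2 (2.69), Idh3g (4.73), CG4496 (4.85) and wg (5.70). At their replicate candidates, Dbct had 19 in replicate 1 and 35.6 in replicate 2, fz2, a Wingless receptor gene, 20.5 and 27.9, and Idh3g 15.8 and 24.4. The second CG4496 member had 30.7 and 62.2, and wg 24.9 and 16.2. Signals thus ranged widely, with CG4496 among the highest members of replicate 2 and wg below the members' lower quartile there. Of the 9 members with a combined signal under 20, 8 shared a replicate candidate with another thresholded peak, and another thresholded summit lay 199 to 736 bp away. In all, 18 members shared a candidate in this way, so the replicate value of such a member is also that of its neighbour.

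Promoters held the largest class of members' summits. With a window of 500 bp on either side of transcription start sites (TSSs), 269 of 566 were TSS-proximal (47.5%, 43.3 to 51.7), against 52.8% (48.9 to 56.7) of peaks in 1 list, 56.8% (52.3 to 61.3) of peaks in both and 14.8% of other candidates. Introns held 184 members (32.5%), intergenic sequence 83 (14.7%), coding exons 20 (3.53%), noncoding exons 5, 5' UTRs 3 and 3' UTRs 2. The intervals for members and for peaks in 1 list overlap, while those for members and for peaks in both do not. Over peaks with a combined signal in the members' interquartile range, the TSS-proximal share was 50.4% of 282 members (44.4 to 56.3) and 52.9% of 136 peaks in 1 list (44.2 to 61.6). The share rose with the TSS window, from 38.0% at 250 bp to 59.4% at 1000 bp.

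Of the 27 thresholded peaks in coding exons, 20 were members. Coding exons held 20 members (3.53%, 2.17 to 5.40), 6 peaks in 1 list (0.932%, 0.343 to 2.02) and 1 peak in both (0.207%, 0.00525 to 1.15), against 19.5% of other candidates. The members' share was 2.16% (24 of 1110) when replicate 2's list was left out of the rule, and among the 40 members above the median combined signal of all thresholded peaks it was 0. Away from TSSs the order was the same, with 6.73% of 297 members, 1.97% of 304 peaks in 1 list, 0.481% of 208 in both and 22.9% of other candidates. The coding-exon members had a median combined signal of 48.9 (lowest 33.6, highest 53.9), below the 52.9 of TSS-proximal, 52.7 of intron and 52.0 of intergenic members. Of these members, 10 of 20 were in the conservative set, as were 64.3% of TSS-proximal, 65.2% of intron and 49.4% of intergenic members.

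**Figure D3:**
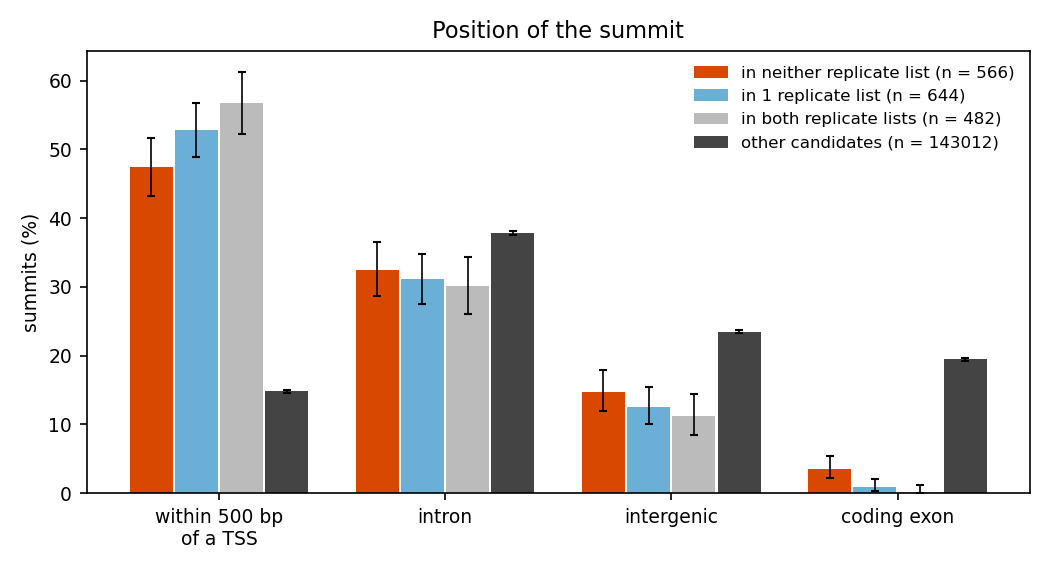
Share of summits (y axis, percent) in 4 position classes for members (orange), peaks in 1 replicate list (blue), peaks in both (grey) and other candidates (dark); bars start at 0 and lines are exact binomial 95% intervals. Members resemble the listed peaks in being promoter-rich (47.5% against 14.8% of other candidates), though less so than peaks in both lists (56.8%), and coding exons hold 3.53% of members.

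The members were spread over the arms, with 120 on 2L (21.2%), 92 on 2R (16.3%), 132 on 3L (23.3%), 134 on 3R (23.7%) and 88 on X (15.5%). All thresholded peaks had 20.2%, 18.6%, 22.4%, 22.3% and 16.5% on these arms. Chromosome 4 held 1 of the 1692 thresholded peaks and 0 of the 566 members, which allows a share of up to 0.650%. Their base composition lay between that of the better supported peaks and of other candidates: the median GC content within 100 bp of the summit was 42.8% for members, 41.3% for peaks in 1 list, 37.8% for peaks in both and 46.8% for other candidates.

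ETS cores were about as frequent at members as at other peaks. Within 100 bp of the summit, on either strand, CCGGAA or ACGGAA occurred at 102 of 566 members (18.0%, 14.9 to 21.4), at 14.9% of peaks in 1 list, 19.5% of peaks in both and 15.4% of other candidates. The longer form CCGGAAG, which contains CCGGAA, stood at 11 members (1.94%, 0.974 to 3.45), 3.11% of peaks in 1 list, 5.19% (3.38 to 7.56) of peaks in both and 1.67% of other candidates. For that form the members' share was close to that of other candidates, and below the share among peaks in both lists with intervals that overlap by little. Counted by distance, members held 1.11 ETS cores per 1000 bases within 50 bp of the summit and 1.02 from 50 to 100 bp, against 0.913 and 0.887 around other candidates. From 100 to 150, 150 to 200 and 200 to 250 bp the members held 0.813, 0.548 and 1.01, against 0.846, 0.840 and 0.800. Their ETS cores thus did not fall off steadily with distance. Peaks in both lists had a like shape, with 1.31 within 50 bp, 0.705 from 100 to 150 bp and 1.06 from 200 to 250 bp. Peaks in 1 list had 1.09, 0.854 and 0.699 at these distances.

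Sites of 2 promoter factors were more frequent at members than at other candidates. The GAGA factor site GAGAGAG stood at 49 members (8.66%, 6.47 to 11.3), 8.07% of peaks in 1 list, 10.2% of peaks in both and 2.78% of other candidates. It was not confined to starts: 9.67% of TSS-proximal members held it and 7.74% (4.97 to 11.4) of the others. Among other candidates these shares were 3.97% and 2.57%. The DREF/BEAF site TATCGAT stood at 39 members (6.89%, 4.95 to 9.30), 5.28%, 6.02% and 2.36%. DREF/BEAF sites lay mostly at starts: 36 of 269 TSS-proximal members held one (13.4%, 9.55 to 18.0) and 3 of the 297 others (1.01%). At TSS-proximal peaks the share was 8.82% (6.03 to 12.4) in 1 list, 8.39% (5.40 to 12.3) in both and 4.61% among other candidates. Densities per 1000 bases, here and for ETS cores, count every match on either strand, overlapping ones included. A palindromic TATCGATA thus counts as 2 sites and a longer GAGA run as several. Around the members, DREF/BEAF sites fell off with distance, from 0.671 per 1000 bases within 50 bp of the summit to 0.265 from 200 to 250 bp. Other candidates had 0.156 and 0.143. Peaks in 1 list had 0.652 and 0.217 at these distances, much like members, and peaks in both 0.394 and 0.207. GAGA factor sites at members were not densest at the summit, with 0.813 within 50 bp and 1.17 from 50 to 100 bp. The same held for peaks in 1 list, with 0.590 and 0.870, and for peaks in both, with 0.456 and 1.93. Other candidates had 0.296 and 0.289. GC content differs between these sets, as given above, and its part in the motif shares was not tested.

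The TATA box TATAAA stood at 119 members (21.0%, 17.7 to 24.6), 25.5% of peaks in 1 list, 30.1% of peaks in both and 13.9% of other candidates. The site GGTCACA of M1BP, a factor of housekeeping promoters, stood at 3.53% of members, 3.57% of peaks in 1 list, 3.32% of peaks in both and 1.83% of other candidates. For the repeat CACACAC the members' share was 12.2%, against 8.04% of other candidates. For the E-box CAGCTG it was 8.48%, against 12% of peaks in 1 list.

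**Figure D4:**
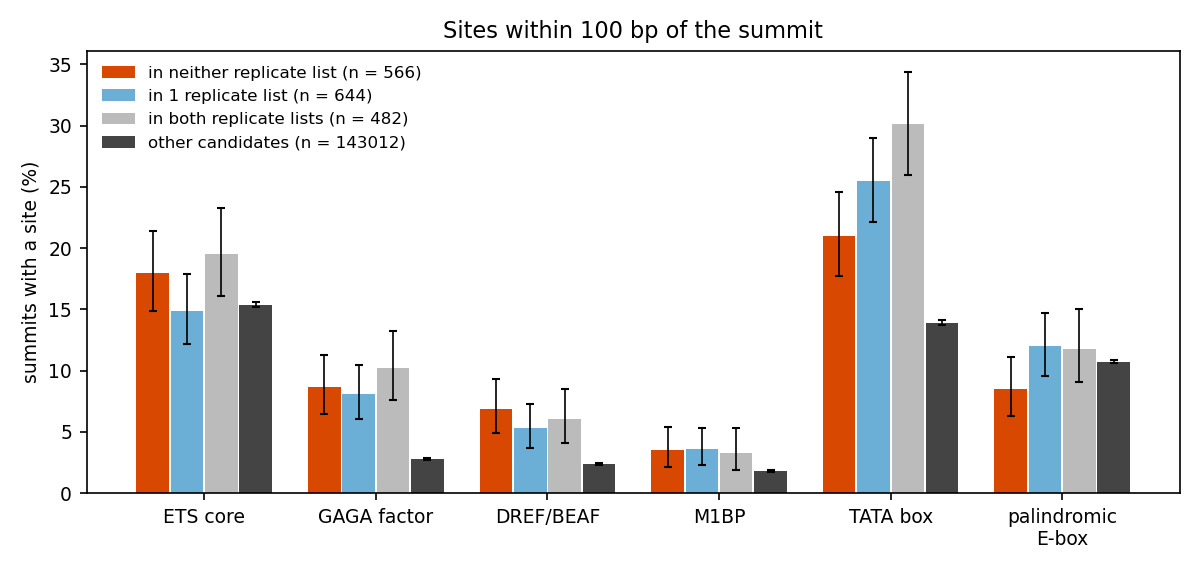
Share of summits (y axis, percent) with a site within 100 bp, for 6 kinds of site in members (orange), peaks in 1 list (blue), peaks in both (grey) and other candidates (dark), with exact binomial 95% intervals. GAGA factor and DREF/BEAF sites stand at 8.66% and 6.89% of members against 2.78% and 2.36% of other candidates, while ETS cores differ less (18.0% against 15.4%).

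With each peak given to the closest TSS of a coding gene, the members reached 515 of 13968 genes, and 3.69% is therefore the background for the gene lists that follow. Any thresholded peak was assigned to 1303 of the 13968 genes. A list rich in thresholded peaks of all kinds can thus also stand above 3.69%. All assigned peaks were members at 378 of the 515 genes (73.4%); the other 137 genes also had a peak in a replicate's list. At 84 members (14.8%) the TSSs of 2 or more genes lay within 500 bp of the summit, and the gene named there has neighbours as close. Lists share genes, they were chosen with results of these data known, and no list was tested.

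In the list of receptor tyrosine kinase and Ras/MAPK genes, 19 of 51 had any thresholded peak. A member stood at 9 of the 51 (17.6%), and all 9 also had a peak in a replicate's list. Members here thus stood beside peaks that a single replicate's list also held. Among the ligands and their processing, the gene of the ligand Spitz, spi, had a TSS-proximal member (2L, 19572460 to 19572715) with signals of 61.0 in the combined list, 25.2 in replicate 1 and 29.8 in replicate 2. The stronger of the 2 intron members of ru (3L, 1367268 to 1367523) had 64.7, 16.8 and 44.2, and the other (3L, 1371029 to 1371284) 57.9, 23.2 and 30.6. Pvf3, which encodes a ligand of the PDGF and VEGF type, had an intron member with 62.5, 22.2 and 37.4.

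The first member of ru thus ranked 784 in replicate 2 and 7503 in replicate 1, and it was not in the conservative set. Downstream, the intron member of Raf, the kinase that activates MEK (X, 2299021 to 2299276), had the highest combined signal of this list, 65.0, with 30.2 in replicate 1 and 36.9 in replicate 2. Both replicates placed it high, at ranks 799 and 1178.

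Inhibitors of the pathway were also among them. The intron member of aos, which encodes the secreted EGF antagonist Argos (3L, 16473333 to 16473588), had signals of 59.2 in the combined list, 20.5 in replicate 1 and 35.6 in replicate 2. The gene sty, which encodes the antagonist Sprouty, had 3 members among 7 thresholded peaks. Their combined signals were 55.8, 55.6 and 55.3, with 20.9, 17.2 and 26.3 in replicate 1 and 32.4, 34.1 and 27.8 in replicate 2. The opposite order in the replicates follows largely from these near-equal combined signals, which lie close to the replicates' sum. For ed, an adhesion molecule that antagonises the EGF receptor, the intron member had 49.8, 22.1 and 25.3.

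Of the 9 genes with an ETS domain, aop itself and pnt had members. With 4 members, aop had more than any other gene. These were 4 of its 20 thresholded peaks, a smaller share than the 33.5% over all thresholded peaks on the arms. The 4 members had combined signals of 52.8, 49.1, 44.5 and 6.04. Replicate 2 had 34.4, 37.1, 35.7 and 8.82 at them; replicate 1 had 20, 20.5 and 14.8 at the first 3 and no candidate at the last. That last candidate ranked 76920 in replicate 2, in the weaker part of the list of 113872. Within 100000 bp of aop stood 8 members and 32 thresholded peaks in all. The fusion's own sequence is that of aop, and its part in the signal there was not tested. The intron member of pnt (3R, 23300836 to 23301091) had 38.8, 19.4 and 32.7.

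Of 21 genes reported as aop targets, 14 had any thresholded peak. Among the 21, 8 had a member (38.1%), of which aop, aos, ed, sty and pnt were described above. The others were pyd, mid and wg, and 7 of the 8 genes also had a peak in a replicate's list, mid being the exception. The junction scaffold gene pyd had 3 members with combined signals of 63.3, 61.1 and 50.4, replicate 1 signals of 27.5, 22.7 and 24.7 and replicate 2 signals of 33.2, 33.1 and 25.5. For mid, a T-box gene of heart and nervous system, the intergenic member (2L, 5476729 to 5476984, 15218 bp from its TSS) had 59.6, 22.6 and 40.6. The 2 members of wg, the Wnt ligand gene, had 39.7 and 5.70 and shared their candidates, 24.9 in replicate 1 and 16.2 in replicate 2.

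Hippo signalling, the kinase cascade that restrains tissue growth, had the highest share of all 28 lists, with a member at 8 of 19 genes (42.1%). Any thresholded peak stood at 9 genes of the list. Only 2 genes of the list had a peak in a replicate's list, and at 7 of the 8 genes every assigned peak was a member. The strongest was in an intron of crb, the apical polarity determinant (3R, 24295907 to 24296162), with signals of 62.6 in the combined list, 27.8 in replicate 1 and 34.2 in replicate 2. The upstream regulator ex had 56.1, 20.5 and 34.9 in intergenic sequence 1074 bp from its TSS. The cascade's kinase wts had 54.7, 25.1 and 31.5 in an intron.

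The remaining 5 Hippo genes, named after their values were seen, had combined signals between 48.8 and 53.1. They were the coactivator yki, which the kinases restrain (53.1), the polarity gene dlg1 (52.7), the death inhibitor Diap1, a target of yki (52.6), the casein kinase gene dco (49.2) and the atypical cadherin gene ds (48.8). All 8 members were in the conservative set. In replicate 1 their candidates ranked between 903 (dco) and 4015 (Diap1), and in replicate 2 between 1402 (ex) and 5154 (dco).

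**Figure D5:**
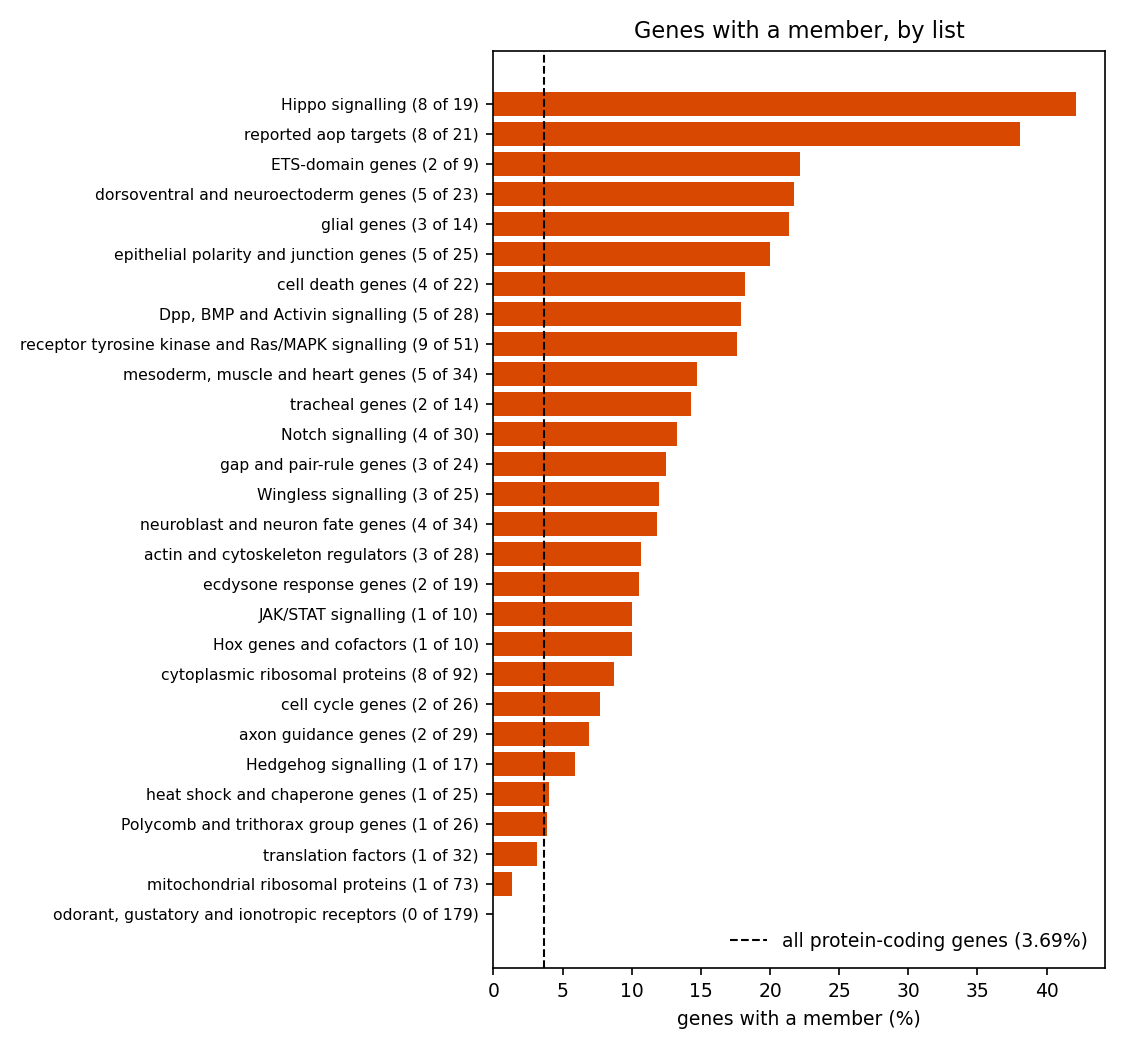
Share of genes with at least 1 member (x axis, percent) in each of 28 gene lists, with the number of genes with a member of the number in the list in brackets; the dashed line marks 3.69%, the share over all protein-coding genes. Hippo signalling (42.1%) and reported aop targets (38.1%) stand at the top and chemoreceptors at 0. The share of genes with any thresholded peak is not drawn.

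Other signalling pathways had smaller shares of genes with a member than Hippo signalling, but all stood above the 3.69% over all protein-coding genes. The Dpp, BMP and Activin share (17.9%) was close to that of receptor tyrosine kinase and Ras/MAPK genes (17.6%). Notch signalling had 13.3%, Wingless signalling 12% and Hedgehog signalling 5.88%. Any thresholded peak stood at 9 Dpp, BMP and Activin genes, 10 Notch genes, 6 Wingless genes and 4 Hedgehog genes. The Dpp, BMP and Activin list had a member at 5 of 28 genes, led by the receptor gene wit (combined signal 56.6, replicate 1 signal 28.3, replicate 2 signal 30.7), the cofactor gene ush (56.3, 26.9 and 29.0) and the antagonist sog (51.4, 22.0 and 28.3). Notch signalling had 4 of 30, led by the ubiquitin ligase gene Nedd4 (65.9, 28.3 and 35.4), E(spl)m2-BFM (55.4, 27.3 and 22.8) and aph-1, a gamma-secretase subunit gene (51.2, 23.2 and 32.3). Wingless signalling had 3 of 25: the kinase gene sgg (61.8, 28.2 and 29.4), fz2 (48.8, 20.5 and 27.9 for its stronger member) and wg. Hedgehog signalling had 1 of 17, Pka-C1 (60.5, 24.6 and 35.4), and JAK/STAT signalling 1 of 10, the suppressor gene Socs36E (55.0, 22.2 and 36.1).

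Lists of patterning and cell fate genes had few genes with a member, but shares above the 3.69% over all protein-coding genes. The shares were 21.7% for dorsoventral and neuroectoderm genes, 14.7% for mesoderm, muscle and heart genes and 11.8% for neuroblast and neuron fate genes. Any thresholded peak stood at 12, 10 and 11 genes of these 3 lists. Dorsoventral and neuroectoderm genes had 5 of 23, with the GATA factor gene pnr (57.8, 27.2 and 35.0 in the combined list, replicate 1 and replicate 2), ush and the homeobox gene Dr (52.0, 21.0 and 25.9) leading. Mesoderm, muscle and heart genes had 5 of 34, led by lmd (64.5, 21.9 and 43.6), mid and pnr. Neuroblast and neuron fate genes had 4 of 34, with brat (70.0, 28.2 and 39.7), hth (54.6, 26.7 and 29.5), also the 1 gene with a member among 10 Hox genes and cofactors, and the Sox gene D (51.6, 17.7 and 34.1).

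Of 24 gap and pair-rule genes 3 had a member, namely bcd (55.4, 21.1 and 32.7), D and hry (39.5, 21.8 and 21.6), and at all 3 every assigned peak was a member. Glial genes had 3 of 14, with loco, a regulator of G-protein signalling (51.1, 29.3 and 21.5), Gli (42.6, 12.8 and 31.1) and pnt. Tracheal genes had 2 of 14, salm (67.2, 28.4 and 45.9) and pnt. Axon guidance genes had 2 of 29, unc-5, a netrin receptor gene (64.2, 20.5 and 48.0 at its stronger member), and ena, an actin regulator (55.5, 23.7 and 36.3).

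Epithelial polarity and junction genes had a member at 5 of 25, with pyd and crb leading, and actin and cytoskeleton regulators at 3 of 28, with the myosin VI gene jar (64.2, 29.1 and 38.8) and the fascin gene sn (60.1, 29.2 and 27.4) ahead of ena. Cell death genes had 4 of 22, led by the inhibitors Diap2 (55.3, 15.9 and 37.7) and Diap1 and by scyl (48.2, 22.2 and 30.6). Ecdysone response genes had 2 of 19, the nuclear receptor gene Hr3 (70.2, 26.9 and 40.7) and Eip63E (50.7, 23.5 and 28.0). Cell cycle genes had 2 of 26: the Cdc25 phosphatase gene stg (50, 28.7 and 22.5) and Dp, the E2F partner (43.7 and 30.4 in the combined list and replicate 1, with no candidate in replicate 2).

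Among the housekeeping lists, cytoplasmic ribosomal protein genes had a member at 8 of 92 (8.70%), and at all 8 every assigned peak was a member, while 9 other genes of the list had a peak in a replicate's list. The strongest were RpS12 (63.2 in the combined list, 22.8 in replicate 1 and 38.8 in replicate 2), RpL35 (60.7, 26.9 and 33.8) and RpL28 (60.4, 35.0 and 22.4). The replicates ordered RpS12 and RpL28 oppositely, which follows largely from combined signals that are alike and close to the replicates' sum. Mitochondrial ribosomal proteins had 1 of 73, mRpL39 (51.5, 22.7 and 30.3), translation factors 1 of 32, eEF5 (62.8, 25.4 and 33.3), chaperones 1 of 25, Hsp83 (60.7, 32.3 and 33.8), and Polycomb and trithorax group genes 1 of 26, psq (64.1, 23.7 and 35.0). The 179 odorant, gustatory and ionotropic receptor genes had 0.

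Most genes with a member had 1: 474 of the 515 did, 32 had 2, 8 had 3 and aop had 4. The 8 genes with 3 members were Src64B, brat, CG4218, pyd, jing, sty, Pli and ced-6, in order of their strongest member, and the first 4 of these are described here. At Src64B and CG4218 all 3 thresholded peaks were members, while brat had 2 further peaks in a replicate's list and pyd 1. The members of CG4218 had combined signals of 68.3, 58.5 and 53.2, with 32, 24.2 and 16.2 in replicate 1 and 31.5, 34.1 and 37.4 in replicate 2, an order that the replicates turned around. The members of Src64B had combined signals of 72.5, 62.8 and 50, with 30.9, 31.2 and 26.4 in replicate 1 and 35.5, 27.6 and 25.4 in replicate 2. All 3 were in the conservative set, and 2 lay in introns and 1 at a start (3L, 4611412 to 4624957).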

How the data were processed

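Peaks had been called by the authors on dm6; the aligner and peak caller: not given in the sources used here. Each list came from the IDR procedure, per the descriptions deposited with the libraries. The deposited score of a peak is the authors' IDR score, up to 1000, and the deposited signal is the authors' enrichment value with unstated scaling, used to describe, rank and filter within a list. Replicate signals were also summed and set beside the combined signal. The deposited ranked lists also hold the global IDR as −log10 of a value, which was read but not used for any result. The summit offset is the authors' own. The signals of the 2 inputs in the combined ranked lists, also with unstated scaling, are the authors' deposited values for inputs the files do not name. Depth is unknown, since the lists hold no counts.

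From these lists, overlap of at least 1 bp defined members, and the strongest overlapping candidate gave each replicate's value. Summits were placed on Ensembl 115 gene models in the order TSS-proximal (500 bp), 5' UTR, coding exon, 3' UTR, intron, noncoding exon, intergenic. Each peak took the coding gene whose TSS was closest. Sequence came from RefSeq's Release 6. In all, 18 motifs of up to 7 letters were searched on both strands of the 201 bp around summits. Lists held 875 distinct genes; 8 symbols were matched through older names, 5 more were rewritten to current symbols after the annotation was read, and 4 matched no gene. Python 3.11.15, numpy 2.4.6, pandas 2.3.3 and scipy 1.17.1 were used. Overlaps, position classes and motif searches were tested on simulated data.

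The members and lists were chosen with earlier results of these data known, and with 1 group of 2 replicates no test was made. Named genes are the 12 strongest and 5 weakest members by combined signal, the 5 strongest in each replicate, all members of the target, receptor tyrosine kinase and ETS lists, the 3 strongest of every other list, 5 genes with most members (ties at 3 members broken by the strongest member, after values were seen), and the peaks at the edge of the rule. Printed sequences are the strongest members with a site within 50 bp of the summit, off 2R and outside UTRs. Alternatives changed the overlap, the starting list, the replicates used, the windows, the match of candidates and the gene assignment. Peaks on unplaced sequence were left out.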

Additional observations from a re-analysis of the deposited data

How the results depend on the processing

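The alternatives recomputed the members' own counts, shares and medians; the differences between members and other peaks were not recomputed. Of the values for the main results under alternatives, 50 stayed within counting error (or within 1.5 times for counts) and 18 moved; for single motifs and classes 131 stayed and 45 moved. Leaving out a replicate gave 666 to 1110 members, the latter without replicate 2, with 76 to 130 listed genes with a member (70 of 875 in the report) and 65.0% to 67.0% of members in the conservative set. Keeping peaks above the median combined signal left 40 members, of which 52.5% were TSS-proximal, 95% had a candidate in replicate 1 and 100% in replicate 2, with median signals of 30.4 and 38.2, 97.5% in the conservative set and 5 listed genes. With the conservative list as the start the median signal in replicate 1 was 24.2. TSS windows of 250 bp and 1000 bp gave 38.0% and 59.4% TSS-proximal. A candidate summit within 100 bp was found for 93.6% of members in replicate 1 and 97.7% in replicate 2. ETS cores stood within 50 bp of 9.19% and within 250 bp of 34.1% of members. Windows and shortened lists move these values by their construction. Leaving out members that share a replicate candidate with another thresholded peak was chosen after seeing the data and moved none of the main results. No paired analysis was possible because the 2 replicates form 1 group. The unknown depth, the unstated scaling of the signal and the absence of a control comparison limit every value to a description of these lists.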
